A study of Homo sapiens with 4 samples.

Results

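Peaks outside the exons of protein-coding genes, counted on the strand of the peak, made up 330 of the 8070 peaks listed for HL60 (4.09%, 95% interval 3.67 to 4.54) and 318 of the 8122 peaks listed for HL60/MX2 (3.92%, 3.50 to 4.36), 648 of 16192 in all. They were chosen by position alone, as rows of the 2 deposited peak lists whose interval and strand met no exon of any transcript of a protein-coding gene in the GENCODE annotation (release 44) on hg19. HL60 is an acute promyelocytic leukemia line, labelled wild type, and HL60/MX2 is its drug-resistant derivative, selected with mitoxantrone and grown in the same medium; neither was treated in this experiment. For each line 1 library enriched with an antibody against m7G was listed as peaks, from RNA captured by its poly(A) tail, decapped and fragmented. There was no replicate and no read count, so no test between the lines was made, the depth behind a peak is unknown, and the exact Clopper-Pearson intervals cover counting error over peaks only. They are called non-coding peaks below, by this annotation only. The authors chose peaks over coding exons of an annotation that is not named, so any or all of these peaks may lie over coding exons there. The classes below are therefore those of GENCODE release 44 and not a survey of peaks on non-coding RNA. No expression values were analysed here, so the labelled cell type could not be checked against its markers.

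N7-methylguanosine (m7G) is best known as the cap of messenger RNA, and it also occurs inside transfer RNA, ribosomal RNA and messenger RNA, where methyltransferases such as METTL1 with WDR4 place it. Transcripts without a coding frame can carry poly(A) tails too. They include long non-coding RNAs (lncRNAs), which are spliced like messenger RNA, and transcribed pseudogenes, which are altered copies of coding genes and often share long stretches with their parents. Introns are removed from the primary transcript, so RNA from an intron can come from unspliced RNA, from a retained intron or from an exon that the annotation lacks.

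The sequences below are peaks found in both lists, shown because these are places where a peak of each line overlapped outside coding exons. The interval given is that of HL60. Capitals mark the letters GGAAA or GGAAG, the letters searched as a motif; sequences and positions are those of hg19, 5′ to 3′ on the strand of the peak.
CLLU1-AS1 exon, HL60, chr12:92814775-92814949, minus strand: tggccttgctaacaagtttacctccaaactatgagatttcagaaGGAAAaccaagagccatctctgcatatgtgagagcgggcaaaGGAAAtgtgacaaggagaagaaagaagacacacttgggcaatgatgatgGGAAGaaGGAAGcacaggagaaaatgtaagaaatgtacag
ENSG00000254695 exon, HL60, chr11:15726721-15726907, plus strand: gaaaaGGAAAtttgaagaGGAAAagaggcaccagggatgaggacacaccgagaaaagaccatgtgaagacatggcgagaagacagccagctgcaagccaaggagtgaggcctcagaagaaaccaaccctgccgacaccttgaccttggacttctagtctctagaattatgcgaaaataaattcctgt
SAMD4A-AS1 exon, HL60, chr14:55154018-55154107, minus strand: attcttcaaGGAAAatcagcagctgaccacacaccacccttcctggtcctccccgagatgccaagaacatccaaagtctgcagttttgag
JMJD1C intron, HL60, chr10:65142561-65142595, minus strand: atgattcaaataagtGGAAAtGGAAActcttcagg
BAGE2 exon, HL60, chr21:11020813-11020917, minus strand: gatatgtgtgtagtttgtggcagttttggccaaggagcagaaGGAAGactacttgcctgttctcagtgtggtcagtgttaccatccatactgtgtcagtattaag

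Exons of genes not typed as protein-coding and introns of coding genes held most of these peaks. Each peak was put in the first class it met, so a peak over both a lncRNA exon and a pseudogene exon was classed under lncRNA. The pseudogene class therefore leaves out such peaks. In HL60, 123 peaks (37.3%, 32.0 to 42.7) were classed under an exon of a lncRNA gene. Another 29 (8.79%) were classed under an exon of a pseudogene and 10 (3.03%) under an exon of another annotated gene on the same strand. In HL60/MX2 these numbers were 118 (37.1%, 31.8 to 42.7), 23 (7.23%) and 14 (4.403%). The share over any such exon was 49.1% in HL60 and 48.7% in HL60/MX2. Introns of protein-coding genes held 116 HL60 peaks (35.2%, 30.003 to 40.6) and 79 HL60/MX2 peaks (24.8%, 20.2 to 29.97), and introns of other genes held 7 and 17. Intergenic peaks, with no annotated gene on either strand, numbered 33 in HL60 (10.0%, 6.98 to 13.8) and 47 in HL60/MX2 (14.8%, 11.1 to 19.2). The lines were close in the exon classes, while HL60 had more intron peaks and HL60/MX2 more intergenic ones, with intervals that lay side by side for introns and overlapped for intergenic peaks.

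**Figure D1:**
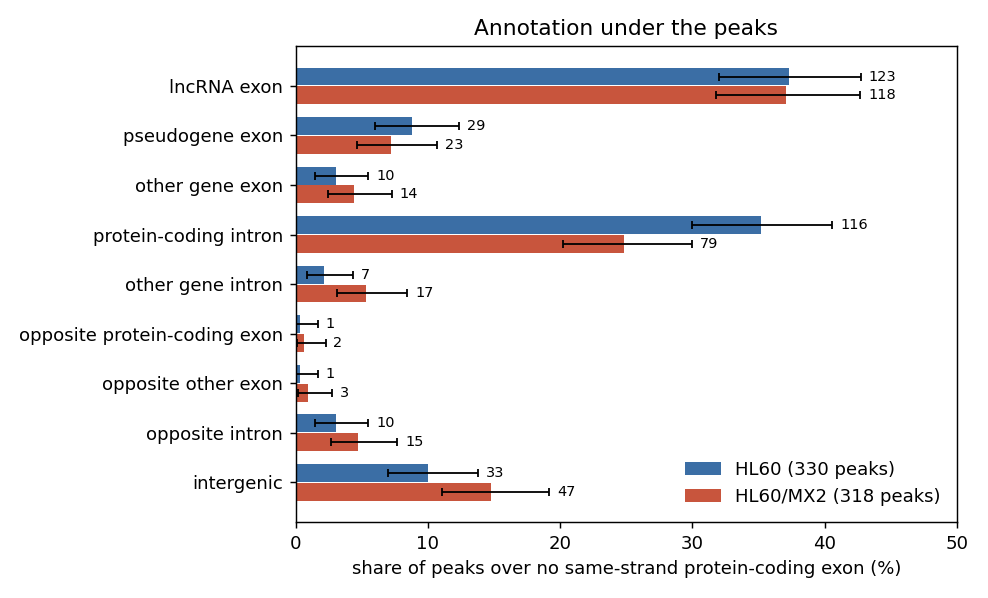
Share of the peaks over no same-strand protein-coding exon (x axis, %) in each annotation class (y axis), with exact 95% intervals and the number of peaks at the end of each bar, for HL60 (330 peaks, blue) and HL60/MX2 (318 peaks, red). lncRNA exons took 123 and 118 peaks and protein-coding introns 116 and 79, and the classes on the opposite strand were small in both lines.

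Few of these peaks lay across from a coding exon. A protein-coding exon on the opposite strand was overlapped by 4 HL60 peaks (1.21%, 0.331 to 3.07) and 8 HL60/MX2 peaks (2.52%, 1.09 to 4.90). For 1 and 2 of them nothing was annotated on the strand of the peak. These were a 50-bp HL60 peak (score 91.8) against SERPINB10, a serpin protease inhibitor, and HL60/MX2 peaks of 204 bp (score 767) against EFCAB13 and 184 bp (score 60.6) against STX1A, the synaptic syntaxin. Named antisense genes carried others, such as SLC22A18AS (220 bp, score 79.9) and ARIH2OS (711 bp, score 133), both in HL60/MX2.

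Sharing between the lines was rare, as in the lists as a whole. Peaks were counted as shared where 1 bp or more was covered, on that strand, by a peak of the other line, which held for 18 of 330 HL60 peaks (5.45%, 3.26 to 8.48) and 17 of 318 HL60/MX2 peaks (5.35%, 3.14 to 8.42). The share over all listed peaks was 6.13% in HL60 and 6.09% in HL60/MX2, so the non-coding peaks were near that background. Of the shared peaks, 9 in each list were of the lncRNA exon class, 1 of the pseudogene exon class, and 2 in each list were intergenic. Introns of coding genes held 4 of the HL60 and 3 of the HL60/MX2 shared peaks. The odd peak was an HL60 peak of 256 bp in an intron of ARHGEF5 (chr7:144072884-144073139), whose HL60/MX2 partner met a coding exon.

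CLLU1-AS1, a lncRNA, had the same 175-bp interval in both lines, with a score of 69.9 in HL60 and 646 in HL60/MX2. The score is the value the authors deposited for each peak, on a scale that is not stated, so it is read within a list. An exon of ENSG00000254695 had a peak of 187 bp in HL60 (score 107) that lay whole within the 194 bp of the HL60/MX2 peak (score 226). SAMD4A-AS1 peaks had the same 3′ end, were 90 bp long in HL60 (score 530) and 39 bp long in HL60/MX2 (score 592), and shared 39 bp. In ENSG00000259133 the shared stretch was 259 bp, with scores of 388 and 240.4. Each of these 4 pairs matched to the base at 1 end or both.

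Introns gave shared peaks as well. The JMJD1C intron, from a gene of the histone demethylase family, had peaks of 35 bp (score 55.8) and 36 bp (score 656) that differed by 1 base at an end. USPL1, a SUMO peptidase gene, had the longest shared stretch, 519 bp, between peaks of 562 bp (score 379.9) and 622 bp (score 353). DAB1, the adaptor of reelin signalling, shared 5 bp, with scores of 65.0 and 70.0. Introns of non-coding genes added ENSG00000288073 (237 bp shared, scores 888 and 528) and TCP10L2 (158 bp shared, scores 421 and 559). The intergenic pairs shared 451 bp at chr2:73513819-73514324 (scores 115 and 220.4) and 16 bp at chr12:29653746-29653766 (scores 125 and 643). The remaining shared peaks lay over BAGE2 (77 bp), NAIPP4 (274 bp, scores 56.0 and 158), ENSG00000290786 (218 bp), ENSG00000213121 (101 bp), the ANKRD20A4P and ANKRD20A5P locus (72 bp) and LINC02904 (20 bp).

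Scores of the non-coding peaks lay close to those of the others. Their median was 205 in HL60 (interval of the median 183 to 233), against 197 for peaks over coding exons. In HL60/MX2 it was 285 (252 to 338), against 259.7. Among the HL60/MX2 classes of more than 3 peaks the intergenic one stood highest, with a median of 467, at percentile 73.3 of its list (58.1 to 83.2). The HL60 intergenic peaks had a median of 164, at percentile 42.2 (23.7 to 70.6), so the intervals overlapped. The few peaks in introns of non-coding genes had medians at percentile 83.3 in HL60 (9.48 to 97.6, 7 peaks) and 70.8 in HL60/MX2 (48.7 to 82.1, 17 peaks), with intervals that reached below the list median.

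**Figure D2:**
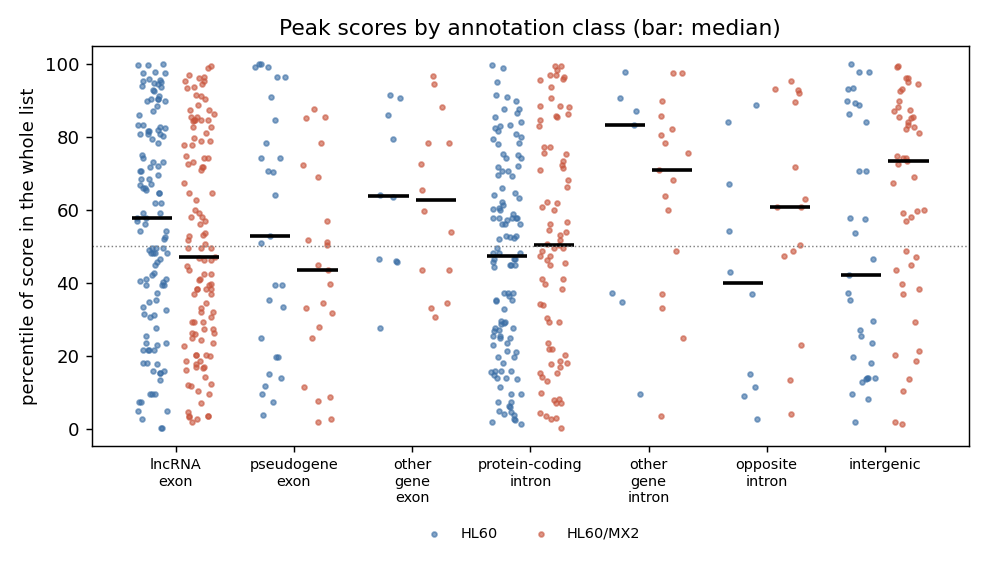
Percentile of each peak's score in its whole list (y axis) for the 7 larger annotation classes (x axis), HL60 in blue and HL60/MX2 in red, with the class median as a black bar and the list median as a dotted line. The points spread widely within every class shown, and the HL60/MX2 intergenic median stood at 73.3.

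The non-coding peaks were longer at the middle of their distribution. Their median length was 163.5 bp in HL60 (128 to 200.0) against 128 bp (125 to 132) for peaks over coding exons, and 191.5 bp in HL60/MX2 (154 to 202) against 132 bp (128 to 135). Peaks of at least 500 bp were 7.27% against 3.99% in HL60 and 4.72% against 3.17% in HL60/MX2. Peaks under 50 bp were also a little more frequent, 20% against 16.8% and 18.2% against 15.9%. The shortest was 1 bp, in HL60/MX2, against an intron of TLX1NB (score 341), and 5-bp HL60 peaks lay in the DAB1 intron and in VNN3P.

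The longest peaks in HL60 were 1090 bp over RP11-343N15.5 (score 336), 940 bp in an intron of VPS54 (score 314), 928 bp in an intron of HSD3BP2 (score 149.7), 926 bp between genes (score 901) and 855 bp over PLAC4 (score 399.99). In HL60/MX2 the longest included an intergenic peak of 1396 bp (score 2807), 988 bp between genes on chromosome 1 (score 329.6), 741 bp over FLJ42393 (score 528) and 730 bp over C22orf46P (score 639). VPS54 encodes a vesicle tethering subunit.

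Intergenic peaks of both lines resembled mitochondrial ribosomal RNA. The 926-bp HL60 peak at chr3:96336075-96337000 matched bases 1750 to 2675 of the mitochondrial genome, inside MT-RNR2, at 95.5% identity over 926 bases. A 280-bp HL60 peak at chr6:62284008-62284287 (score 95.5) matched MT-RNR2 at 93.9%, and a 288-bp HL60/MX2 peak at chr1:238107024-238107311 (score 1012) matched its end and MT-TL1 at 84.7%. These were the intergenic peaks that aligned to the mitochondrial genome over at least 50% of their length at 75% identity or more. MT-RNR2 encodes the large ribosomal RNA of mitochondria, and insertions of such sequence are common in the nuclear genome. Reads from mitochondrial RNA and from these insertions were not compared here. The 280-bp peak is shown as the shortest of these.
Peak like MT-RNR2, HL60, chr6:62284008-62284287, plus strand: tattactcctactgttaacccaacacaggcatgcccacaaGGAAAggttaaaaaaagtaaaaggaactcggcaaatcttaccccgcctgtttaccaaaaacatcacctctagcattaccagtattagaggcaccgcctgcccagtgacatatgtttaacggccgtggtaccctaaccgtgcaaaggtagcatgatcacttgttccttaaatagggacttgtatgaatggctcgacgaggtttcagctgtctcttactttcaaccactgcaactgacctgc

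Many non-coding peaks had a near-identical copy elsewhere, defined as at least 95% identity over at least 90% of the peak, for peaks of 30 bp or more. In HL60 this held for 66 of 289 peaks (22.8%, 18.1 to 28.1), against 48 of 711 peaks over coding exons (6.75%, 5.02 to 8.85), of which 1 in 10 was searched. In HL60/MX2 it held for 66 of 281 (23.5%, 18.7 to 28.9) against 49 of 722 (6.79%, 5.06 to 8.87). A copy that met a protein-coding exon in sense was found for 45 HL60 peaks (15.6%, 11.6 to 20.3) and 37 HL60/MX2 peaks (13.2%, 9.44 to 17.7). Among the searched peaks over coding exons it was found for 29 of 711 in HL60 (4.08%, 2.75 to 5.81). In HL60/MX2 these were 29 of 722 (4.02%, 2.71 to 5.72). Peaks of the pseudogene exon class, which leaves out those that also met a lncRNA exon, had copies most often, 19 of 26 in HL60 and 10 of 22 in HL60/MX2. Among intergenic peaks the numbers were 4 of 24 and 15 of 40. Reads from such places can be split or misplaced between copies, so the gene named for these peaks is uncertain.

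Copies were frequent among the highest scores of HL60. Of the 10 highest HL60 peaks, 9 were long enough to search and 8 had a copy, while in HL60/MX2 4 of 10 did. Over all searched non-coding peaks of HL60, those at or above the list median were 57.6% (44.8 to 69.7) with a copy and 47.5% (40.8 to 54.3) without. In HL60/MX2 they were 48.5% (36.0 to 61.1) and 56.3% (49.4 to 63.0). The intervals overlapped within each line. REXO1L11P, from a tandem array of exonuclease-like genes, and an intergenic peak in the same array both had the HL60 score of 3100, with 11 and 14 copies. A peak of 196 bp over NPIPB10P, a copy of the primate-expanded NPIP family, scored 2804 and matched 13 places. FAM230E peaks scored 2379.8 and 886 in HL60 and 1107 in HL60/MX2. TCAF2P1 scored 1757, with copies in TCAF2 and TCAF2C exons, XX-FW84067D5.1 scored 1344 with copies in PRAMEF7 and PRAMEF8, and ELOA3P scored 1317. The PDE4DIP intron peak (29 bp, score 1874) was too short to search, and the ZNF595 intron peak (122 bp, score 1161) had no copy.

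In HL60/MX2 the highest scores included 3100 over ENSG00000290585, with 4 copies including an exon of BET1L, and 3100 in an intron of UNC5A, a netrin receptor gene, with none. An intergenic peak in the REXO1L array scored 2807, 1 between genes at chr19:41533851-41534168 scored 2269.7 without a copy, and ENSG00000228120 scored 1995. WDFY4, a gene of antigen presentation, followed with an intron peak of 1737. ENSG00000269707 and EPCAM-DT introns scored 1489 each, and ENSG00000204814 scored 1341 with 5 copies. Sequences of high-scoring peaks are shown, the first 5 with copies and the last 2 without.
NPIPB10P exon, HL60, chr16:29057543-29057738, plus strand: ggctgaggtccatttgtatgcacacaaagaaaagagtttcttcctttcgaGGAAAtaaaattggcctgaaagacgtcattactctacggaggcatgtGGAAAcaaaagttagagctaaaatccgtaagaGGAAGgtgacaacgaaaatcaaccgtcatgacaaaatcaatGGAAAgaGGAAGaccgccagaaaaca
FAM230E exon, HL60, chr22:18744980-18745065, plus strand: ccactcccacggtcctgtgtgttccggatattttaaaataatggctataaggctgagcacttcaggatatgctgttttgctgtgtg
TCAF2P1 exon, HL60, chr7:143507875-143508074, plus strand: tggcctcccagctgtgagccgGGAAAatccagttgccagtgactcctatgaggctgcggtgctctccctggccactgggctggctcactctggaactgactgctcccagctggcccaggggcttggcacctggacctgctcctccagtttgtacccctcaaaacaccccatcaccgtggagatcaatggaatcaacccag
BAGE2 exon, higher score, HL60, chr21:11047481-11047595, minus strand: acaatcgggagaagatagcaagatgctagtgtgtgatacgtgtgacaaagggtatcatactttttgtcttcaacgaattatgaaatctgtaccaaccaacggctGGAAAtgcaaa
ENSG00000290585 exon, HL60/MX2, chr9:141121358-141121553, plus strand: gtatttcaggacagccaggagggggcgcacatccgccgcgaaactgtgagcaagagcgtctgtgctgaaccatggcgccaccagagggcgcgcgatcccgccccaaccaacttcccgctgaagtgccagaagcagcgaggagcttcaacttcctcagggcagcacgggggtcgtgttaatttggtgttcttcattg
ENSG00000228120 exon, HL60/MX2, chr21:44579766-44579877, minus strand: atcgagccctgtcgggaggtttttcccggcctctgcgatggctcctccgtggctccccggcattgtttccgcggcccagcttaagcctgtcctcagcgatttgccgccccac
WDFY4 intron, HL60/MX2, chr10:50183503-50183641, plus strand: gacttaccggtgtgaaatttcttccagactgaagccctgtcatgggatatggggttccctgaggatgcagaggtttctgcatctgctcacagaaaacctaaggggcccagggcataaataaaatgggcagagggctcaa

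Peaks with the most copies matched many places. The shared peaks of ENSG00000213121 had at least 4469 copies in HL60 and 4009 in HL60/MX2, a CCDC30 intron peak of 42 bp in HL60 had 5058, and a SUPT20H intron peak of 130 bp in HL60/MX2 had 3611. These are lower bounds, since the number of matches kept per chromosome was limited. No repeat annotation was used. Without the peaks that had a copy, 9 of 223 HL60 peaks (4.04%, 1.86 to 7.52) and 9 of 215 HL60/MX2 peaks (4.19%, 1.93 to 7.80) were shared. With a copy, 7 of 66 (10.6%, 4.37 to 20.6) and 6 of 66 (9.09%, 3.41 to 18.7) were.

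The peaks over exons of genes not typed as protein-coding fell in 190 lncRNA genes, 58 pseudogenes and 24 other genes. The other genes include 8 antigen receptor segments, which are parts of receptor genes and are described below. A peak over overlapping genes counted for each of them, also across these kinds, so the genes are not all separate places. Of the lncRNA genes, 81 had a peak in HL60 alone, 82 in HL60/MX2 alone and 27 in both. For pseudogenes these numbers were 26, 22 and 10, and for the other genes 10, 14 and 0. The share found in both was 14.2% for lncRNA genes and 17.2% for pseudogenes. Over all genes of these kinds with any listed peak on an exon, these included, it was 14.7% (38 of 259) and 14.3% (11 of 77). Over genes of every kind with such a peak it was 27.2% (2522 of 9279), and most of those were coding. Genes with more peaks have more chances to be found in both, and this was not matched. No symbol was given for 83 of the lncRNA genes. By symbol, RefSeq types (GRCh38.p14) named 96 of the 190 lncRNA genes as lncRNA, 8 as transcribed pseudogenes and 1, CRYZL2P-SEC16B, as protein-coding, with 85 unmatched. Of the 58 pseudogenes, 1, PRAMEF23, was protein-coding there.

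The locus of ANKRD20A4P and ANKRD20A5P, copies of an ankyrin repeat gene on chromosome 9, ranked first, with 4 HL60 and 2 HL60/MX2 peaks and scores up to 883 and 379.98. At another place on that chromosome, ANKRD20A2P and ANKRD20A3P, which share their place with ENSG00000240240, ENSG00000290971 and ENSG00000291287, carried 2 in each line. BAGE2 carried 2 in each line, with HL60 scores of 627 and 1705 and HL60/MX2 scores of 259.7 and 237. All of the 4 BAGE2 peaks had a copy in an exon of KMT2C, the gene of a histone H3 methyltransferase, and ENSG00000290523 held these and 1 more HL60/MX2 peak (score 944). FMO6P, of the flavin monooxygenase family, had 3 HL60 peaks (scores 156, 263 and 368.5) and 1 HL60/MX2 peak (score 56.2), and the 3 long enough to search had no copy. OFCC1 had 3 HL60/MX2 peaks (scores 70.7, 423 and 696) and none in HL60. ENSG00000290786 had 2 in each line, with 1232 as its top score in HL60/MX2 and 139 in HL60. GDNF-AS1 had 3 HL60 peaks (scores 149.7, 177 and 189.8) and none in HL60/MX2. ZNF812P, FAM86C1P, GOLGA8IP, ENSG00000177359, CARD17P and CCDC162P carried 2 or 3 each.

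Of all annotated lncRNA genes 190 of 18910 (1.005%) carried such a peak, and of all pseudogenes 58 of 15140 (0.383%). The authors had limited the lists to peaks over coding exons of their annotation, so peaks over other genes could be missing for that reason. Of 22 annotated long-studied lncRNAs, a list with MALAT1, NEAT1, GAS5 and HOTAIR, none carried a peak of this kind in either line. Given that limit, this count cannot show whether these RNAs carried m7G. Of the 2270 genes named LINC, 33 (1.45%) carried such peaks, 22 in HL60 and 19 in HL60/MX2, led by LINC01100 (score 529) and LINC01664 (score 1193). Antisense genes carried 19 and 13, in 25 of 1820 genes (1.37%), near the share of all lncRNA genes. They were led by SAMD4A-AS1 and DNAH17-AS1 (530 each) in HL60 and by ZBTB7C-AS2 (1023) in HL60/MX2. Divergent transcripts carried 3 and 6, in 6 of 589 genes (1.02%), also near that share, among them TMEM132E-DT with 1 and 2 and RAB17-DT with 1 each. Hosts of microRNAs, 3 of 83 genes (3.61%), gave MIR34AHG (score 131) and MIR2052HG (90.4) in HL60 and MIR3667HG (138) in HL60/MX2. SNHG14, the host of the imprinted small nucleolar RNAs, had an HL60 peak of 401 bp (score 90.2), which also met PWAR6. It was the sole peak of that family, in 1 of 28 genes (3.57%).

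Among non-coding genes with the symbols of coding families, ANKRD symbols carried 7 and 4 peaks (5 of 60 genes) and FAM symbols 6 and 5 (6 of 195). ZNF symbols carried 5 and 2 (5 of 175), GOLGA 1 and 2 (2 of 32) and NBPF 2 and 0 (1 of 10). HLA symbols carried 0 and 1 (1 of 23), over HLA-J (411 bp, score 62.4). These were counted by the start of the symbol, so 2 of the HL60/MX2 FAM peaks (FAM167A-AS1) and 1 of the HL60 ZNF peaks (ZNF295-AS1) lay over antisense genes counted above. Olfactory receptor pseudogenes, 456 in the annotation, had 1 HL60 peak, over OR2W5P, and 0 in HL60/MX2. The 1508 ribosomal protein pseudogenes and the POTE and USP copies carried none in either line, which the authors' choice of peaks over coding exons could itself give.

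Antigen receptor loci held peaks of this set in HL60/MX2 and none in HL60. T and B lymphocytes assemble their receptors from gene segments in these loci, and the annotation gives the segments types of their own, apart from protein-coding genes. Of 629 segments, 8 carried an HL60/MX2 peak of this set and none an HL60 peak of it. With the segments counted as protein-coding, the set held 310 HL60/MX2 peaks and 330 HL60 peaks. The locus of T cell receptor alpha and delta (chr14:22089991-23021099, 127 segments) held 9 HL60/MX2 peaks, all over no coding exon, and 0 of the 8070 HL60 peaks. By the approximate rule of 3, taking 3 peaks of 8070 as the upper limit for a count of 0, this allows up to 0.0372% of the list. This limit is not an exact interval. It covers counting over the listed peaks only and does not say what another HL60 library would hold. The highest lay over TRDC, the constant segment of the delta chain, at chr14:22934525-22934813 (289 bp, score 1267). The TRDC intron had a peak of 278 bp (score 656). The variable segments TRAV8-2 (716), TRAV18 (531), TRDV2 (223) and TRAV12-2 (174), the joining segment TRAJ30 (168) and intergenic peaks with scores of 716 and 618 made up the rest. Their strand was the plus strand, that of the segments.

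Elsewhere, TRBV29-1 of the beta locus (score 388), IGHD of the heavy chain locus (score 155) and an intergenic peak of that locus (score 777) were listed in HL60/MX2. The beta locus also held 1 peak of each line over coding exons. The gamma and kappa loci held no peak in either line, and the lambda locus held 2 HL60 and 1 HL60/MX2 peaks, all over coding exons. In all, 12 of the 318 HL60/MX2 peaks (3.77%, 1.96 to 6.50) and 0 of the 330 HL60 peaks (0 to 1.11) lay in receptor loci. With 1 library a line, this difference has no replicate, and a peak missing from a list does not show that the RNA was absent. Sequences over the delta and alpha segments are given since they carry this difference.
TRDC exon, HL60/MX2, chr14:22934525-22934813, plus strand: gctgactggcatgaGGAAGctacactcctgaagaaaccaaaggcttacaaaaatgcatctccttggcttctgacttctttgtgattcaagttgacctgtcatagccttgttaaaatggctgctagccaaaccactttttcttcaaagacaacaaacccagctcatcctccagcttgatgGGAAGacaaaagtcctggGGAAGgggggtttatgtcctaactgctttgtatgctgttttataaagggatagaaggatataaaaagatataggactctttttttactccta
TRAV18 exon, HL60/MX2, chr14:22471624-22471797, plus strand: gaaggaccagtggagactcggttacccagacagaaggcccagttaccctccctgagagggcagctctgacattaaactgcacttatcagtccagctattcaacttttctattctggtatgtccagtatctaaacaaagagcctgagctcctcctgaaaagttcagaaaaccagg
TRDV2 exon, HL60/MX2, chr14:22891507-22891582, plus strand: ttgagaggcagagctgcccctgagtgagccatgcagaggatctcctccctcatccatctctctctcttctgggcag
Intergenic peak by TRAV8-2, HL60/MX2, chr14:22322211-22322350, plus strand: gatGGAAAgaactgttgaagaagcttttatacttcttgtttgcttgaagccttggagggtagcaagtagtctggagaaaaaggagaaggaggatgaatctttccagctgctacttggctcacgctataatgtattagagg

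On chromosome 14, 25 of 227 HL60/MX2 peaks were over no coding exon (11.0%, 7.26 to 15.8), against 8 of 248 HL60 peaks (3.23%, 1.40 to 6.26). Of the 25, 11 lay in receptor loci, and outside them the share was 14 of 216 (6.48%, 3.59 to 10.6). LINC01588 added 2 exon peaks (scores 57.9 and 287) and 1 intron peak (score 777). On chromosome 9 the shares were 8.07% (5.18 to 11.9) in HL60 and 5.33% (3.19 to 8.29) in HL60/MX2. On chromosome 21 they were 6.67% (2.20 to 14.9) and 9.41% (4.15 to 17.7), from 5 and 8 peaks. The intervals of the lines overlapped on both. Chromosomes 14, 9 and 21 were picked from all chromosomes after their shares were seen.

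**Figure D3:**
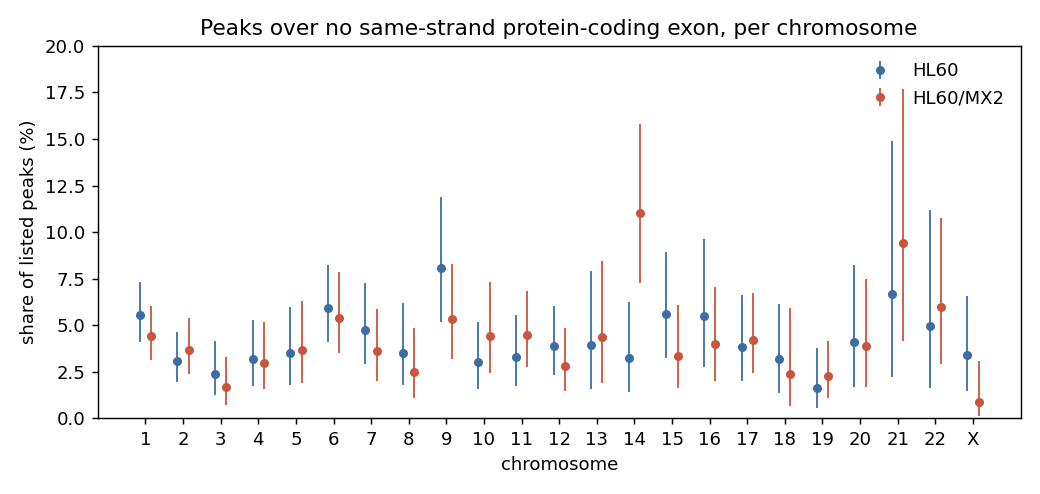
Share of the peaks listed on each chromosome (x axis) that were over no same-strand protein-coding exon (y axis, %), with exact 95% intervals, for HL60 (blue) and HL60/MX2 (red). The HL60/MX2 point for chromosome 14, at 11.0%, lay above the HL60 point at 3.23%, and their intervals did not overlap. This chromosome was picked after the shares of all were seen.

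Intron peaks lay nearer to coding exons in HL60/MX2. The median distance from a peak in a coding intron to the nearest coding exon of its strand was 835 bp in HL60 (662 to 1209, 116 peaks) and 302 bp in HL60/MX2 (230.0 to 517, 79 peaks). Within 1000 bp lay 54.3% (44.8 to 63.6) and 77.2% (66.4 to 85.9). The start of a coding transcript was within 1000 bp of 15 HL60 intron peaks (12.9%, 7.42 to 20.4) and 26 HL60/MX2 intron peaks (32.9%, 22.7 to 44.4). A transcript end was within 1000 bp of 14 (12.1%, 6.76 to 19.4) and 20 (25.3%, 16.2 to 36.4), with intervals that overlapped. The UNC5A, WDFY4, THY1 and CYP4V2 intron peaks of HL60/MX2 (scores 3100, 1737, 1333 and 1311) lay 156, 417, 294 and 405 bp from an exon, in that order. In HL60 the distances were 221 bp for PDE4DIP, 2334 bp for ZNF595, 594 bp for RAPGEF4 (score 687) and 122 bp for ITGB3BP (score 559). Intron peaks of both lines were found in 8 genes, DAB1, JMJD1C, MPP4, NBPF10, PELI1, TLE1, TMEM131 and USPL1. No share was computed for these genes. Of coding genes with any listed peak on an exon, 27.7% (2472 of 8911) had one in both lines.

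Intergenic peaks had a median distance of 4297 bp in HL60 and 1859 bp in HL60/MX2, with intervals of 137 to 16349 and 450.0 to 6898. A coding exon of the strand was within 100 bp of 8 of 33 and 12 of 47. The nearest of these was an HL60/MX2 peak of 83 bp (score 1193) 2 bp from an EMP2 exon.

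**Figure D4:**
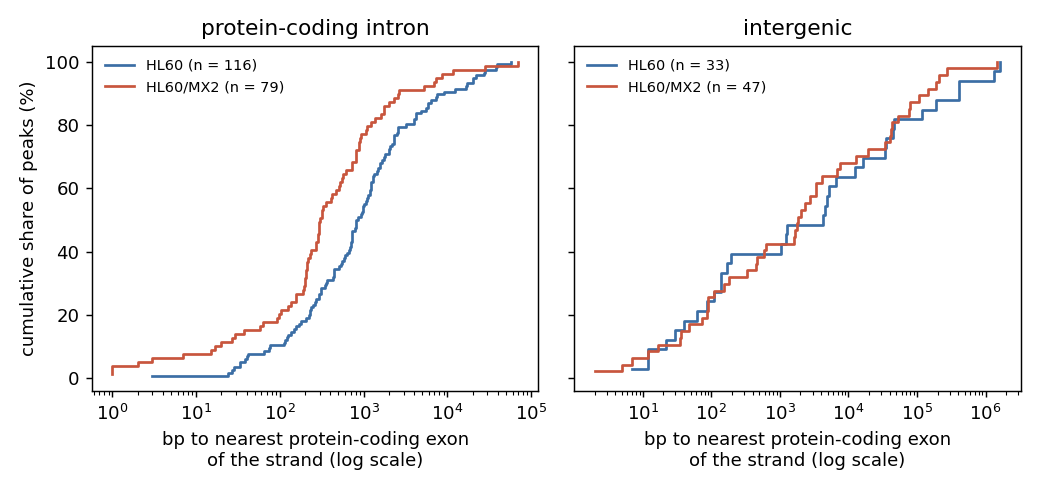
Cumulative share of peaks (y axis, %) by distance to the nearest protein-coding exon of the same strand (x axis, bp, log scale), for peaks in coding introns (left, 116 HL60 and 79 HL60/MX2) and intergenic peaks (right, 33 and 47). The HL60/MX2 curve lay to the left for intron peaks, with medians of 302 and 835 bp, and the curves crossed for intergenic peaks.

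Many peaks over lncRNA and pseudogene exons ended where an exon did. Among peaks of the lncRNA exon class 60.2% in HL60 and 62.7% in HL60/MX2 started or stopped exactly at an annotated exon end. In the pseudogene exon class 75.9% and 69.6% did. Over exons of other genes 2 of 10 and 8 of 14 did. Peaks over coding exons did so in 70.6% and 71.5%. Over all 330 and 318 non-coding peaks the share was 29.7% (24.8 to 34.9) and 30.8% (25.8 to 36.2), since peaks outside exons have no such end.

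Outside exons the genome itself was read at the ends. Introns end in AG and begin with GT on the strand of the transcript, so an exon has AG before its first base and GT after its last. Of 168 HL60 and 163 HL60/MX2 peaks outside any same-strand exon, 17.3% (11.9 to 23.8) and 12.9% (8.16 to 19.02) had AG just before, and 23.8% (17.6 to 31.0) and 20.9% (14.9 to 27.9) had GT just after. Peaks over coding exons whose end was not at an annotated exon end had AG in 4.96% and 5.97% and GT in 4.45% and 4.66%. Such an end can lie inside the exon or past it. Those ending at an annotated exon end had AG in 90.1% and 86.7% and GT in 91.6% and 92.7%. The peaks outside exons were therefore between these levels, nearer to the lower. Both pairs stood around 12 HL60 and 7 HL60/MX2 peaks, among them introns of NLGN4X (111 bp, score 211), DAPK1 (75 bp, score 109.9), LIN28B (45 bp, score 249) and ESR1 (49 bp, score 414) and the intergenic peak by TRAV8-2 shown above.

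**Figure D5:**
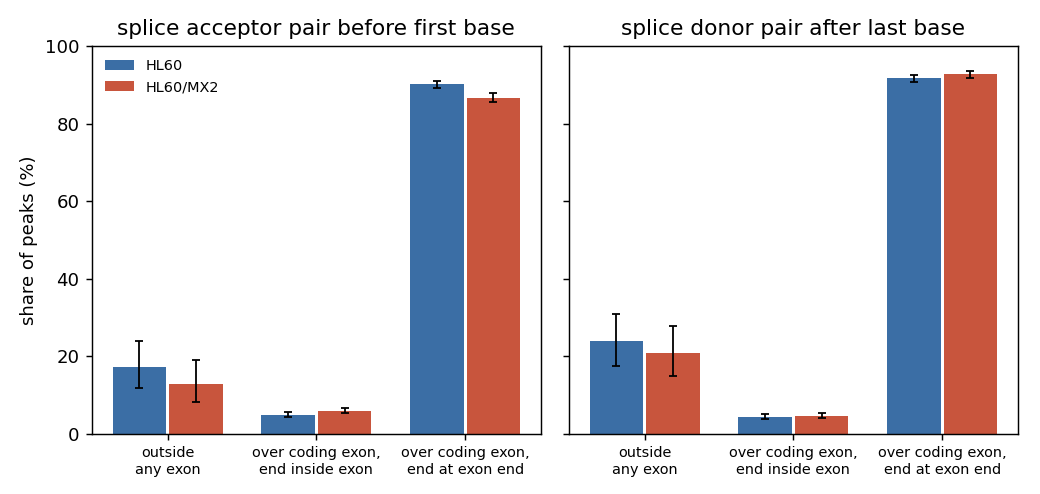
Share of peaks (y axis, %) with the splice acceptor pair of bases just before the first base (left) or the splice donor pair just after the last base (right), with exact 95% intervals, for peaks outside any same-strand exon and for peaks over coding exons. The latter were split by whether that end was at an annotated exon end. Ends not there, labelled as inside the exon, can also lie past it. Peaks outside exons, at 12.9% to 23.8%, stood above those not ending at an exon end and below those ending at one.

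Base composition was like that of the other peaks. The median GC content was 45.3% in HL60 and 47.2% in HL60/MX2, against 45.2% and 48.1% for peaks over coding exons. The letters GGAAA or GGAAG on the strand of the peak were in 50% (44.5 to 55.5) of the HL60 and 43.4% (37.9 to 49.0) of the HL60/MX2 peaks, against 43.7% and 43.0%. The letters CTGGA, also counted as CTGGG or ending in TA (CTGTA) or in TG (CTGTG), were in 60.3% and 57.9%, against 55.8% and 57.1%. Longer peaks hold a match more often, and the non-coding peaks were longer, so these shares were not matched for length. The CLLU1-AS1 peak shown above held GGAAA or GGAAG at 4 places.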

How the data were processed

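Enriched (m7G immunoprecipitated) RNA of HL60 and HL60/MX2 was measured in 1 library each of the 4 in the series, and the inputs were not analysed here. Per the labels and the submitters' processing notes, reads were trimmed with cutadapt 1.9.3, input reads were also aligned with STAR, and all libraries were aligned to hg19 with HISAT2 2.0.4. The authors called peaks with MACS, compared the lines with diffReps and then selected, by scripts of their own, those that met exons of coding genes; the MACS version and the annotation they used are not given in the sources used here. Each deposited list gives position, strand and a score per peak; the score's scale is not stated, and no transformation was applied to it. Starts counted from 0 were turned to starts counted from 1.

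Exons, genes and transcripts came from GENCODE release 44 placed on GRCh37, with 20176 protein-coding genes. A peak took the first class met by at least 1 bp, in the order lncRNA exon, pseudogene exon, other exon, coding intron, other intron, opposite coding exon, opposite other exon, opposite intron, intergenic. Gene types were set beside RefSeq (GRCh38.p14) by symbol. Copies were searched with blastn 2.17.0, the mitochondrial search with an e-value limit of 1e-05. The genome used marks no repeats, so masked bases were not counted. Shares carry exact Clopper-Pearson 95% intervals and medians order-statistic intervals. The class steps were checked on simulated peaks of known class. Named peaks were all shared ones, the 10 highest and 5 longest of each list, the 10 non-coding genes and 10 pseudogenes with most peaks, and gene families; peaks or genes named besides these, among them the mitochondrial, receptor and splice-pair examples, were chosen after their values were seen. Of the peaks this rule names, 1 is not reported here. The peaks, lists and gene families were chosen with earlier results of these data known. Python 3.11.15, numpy 2.4.6, scipy 1.17.1 and pysam 0.24.0 were used.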

Additional observations from a re-analysis of the deposited data

How the results depend on the processing

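The number of peaks over no coding exon depends on which exons count. With exons of basic transcripts alone it rose to 763 (HL60) and 714 (HL60/MX2), and with exons of transcripts that are themselves protein-coding 471 and 449, against 330 and 318. These settings remove exons from the annotation. With scores at or above the list median it was 171 and 175, and the share that was shared fell to 2.92% and 2.86%, from 5.45% and 5.35%, where fewer peaks can meet. With peaks of at least 50 bp the median length was 204 and 207 bp, against 163.5 and 191.5 bp. Of 88 planned settings, 74 left the value within its limits (counts within 1.5 times, shares and medians inside their 95% interval) and 14 moved it; those not given here concern the opposite exon classes, whose few peaks fell to 0. Dropping the annotation's repeated copies of pseudoautosomal genes, chosen after seeing the data, gave 331 and 319. No paired analysis was possible because each line has 1 library. Depth is unknown, so a peak missing from a list cannot be told apart from a place read too thinly, and coding annotation, copies and mitochondrial likeness were described without a test.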
